A study of Drosophila melanogaster with 2 samples.

Results

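Aminoacyl-tRNA synthetase genes are described here in a map of where CG3065 binds the genome in Drosophila melanogaster embryos. CG3065 belongs to the Sp/KLF family of zinc finger transcription factors. The members were the protein-coding genes whose symbol consists of amino acid codes followed by RS, with or without the suffix -m. The rule found 33 genes among the 13945 protein-coding genes of the large chromosome arms, X and chromosome 4. Of these, 18 carry no suffix and are called cytosolic here, and 15 carry -m and are called mitochondrial. The rule used names only and no measured value, though the members were chosen with earlier results of these data known.

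The samples were whole embryos of both sexes, aged 0 to 16 h, from a transgenic line in which GFP is fused to the C-terminus of CG3065. Chromatin sheared to 200 to 800 bp was precipitated with an antibody against GFP and sequenced (ChIP-seq). There was 1 group of 2 samples, called biological replicates 1 and 3 in the labels, so no conditions were compared. Whether they came from separate embryo collections is not stated. Which promoter drives the fusion and which CG3065 alleles the line carries is not stated in the sources used, and whole embryos mix all tissues of these stages. Relaxed peak lists held 30000 entries in replicate 1, 26271 in replicate 3 and 30000 in the pooled list. They include background by design, so that listing alone does not show binding. The 2451 peaks that passed the authors' irreproducible discovery rate (IDR) threshold are called IDR peaks, and all were the strongest pooled entries. A gene was counted where a summit lay within 500 bp of any of its annotated start sites. Signal is the authors' value per peak, comparable within a list and not between lists, and the read depth is unknown. Distances are negative upstream of a start site and positive downstream, and gene coordinates are dm6.

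Aminoacyl-tRNA synthetases join each amino acid to its transfer RNA and so supply the ribosome with charged tRNAs. Cytosolic and mitochondrial translation use separate charged pools, and in flies many amino acids have a separate nuclear gene for the enzyme imported into mitochondria. Some genes of animals serve both compartments, as those for glycyl- and lysyl-tRNA synthetase do in humans, so a symbol without -m does not exclude a mitochondrial form. Sp/KLF proteins bind GC-rich and CACCC-type boxes through zinc fingers.

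Sequences around the pooled summits of 7 members are shown first, because they are the DNA at the positions where the values below were read. Each is the longest stretch outside annotated untranslated regions within 50 bp of the summit, on the forward strand, 5′ to 3′, from the RefSeq Release 6 genome (dm6 coordinates). Capitals mark a searched word. GluProRS, IleRS and ThrRS carry IDR peaks, AsnRS and LeuRS-m are strong cytosolic and mitochondrial members below the IDR list, and ArgRS and HisRS hold core promoter words. The window of SerRS, another member with an IDR peak, is almost wholly annotated untranslated sequence and is not shown.
GluProRS, chr3R:23958576-23958650: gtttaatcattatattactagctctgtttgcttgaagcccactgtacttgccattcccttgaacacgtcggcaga
IleRS, chr3L:22288456-22288556: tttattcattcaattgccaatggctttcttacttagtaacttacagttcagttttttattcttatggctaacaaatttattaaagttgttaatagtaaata
ThrRS, chr2L:12103563-12103663: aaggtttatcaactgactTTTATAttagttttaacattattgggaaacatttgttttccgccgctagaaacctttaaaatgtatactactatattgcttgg
AsnRS, chr2L:19131955-19132050: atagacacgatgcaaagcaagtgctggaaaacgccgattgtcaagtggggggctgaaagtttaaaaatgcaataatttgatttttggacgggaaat
LeuRS-m, chr3L:4825688-4825749: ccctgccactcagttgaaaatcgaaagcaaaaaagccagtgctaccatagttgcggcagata
ArgRS, chrX:15844360-15844460: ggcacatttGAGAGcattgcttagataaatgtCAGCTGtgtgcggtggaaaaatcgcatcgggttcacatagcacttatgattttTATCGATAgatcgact
HisRS, chrX:18515390-18515427: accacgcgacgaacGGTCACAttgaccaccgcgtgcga

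Words were searched on both strands of the 101 bp centred on each summit. There the Sp/KLF box (the word CACACCC or the word CACGCCC or the word CCCACCC or the word CCCGCCC) was in 0 of the 5 members with an IDR peak and in 0 of the other 20 members with a pooled summit. It was in 11.3% of all 2451 IDR windows and in 6.47% of the 1236 IDR windows at promoters. The word TATAAA was in 2 of the 5 windows, those of SerRS and ThrRS, and in 4 of the other 20 (LeuRS, CysRS-m, IleRS-m and TrpRS-m), against 19.1% of all IDR windows and 21.0% of those at promoters. The DRE word TATCGATA, which is bound by the promoter factor DREF, occurred at ArgRS and at no other member. It was in 1.80% of all IDR windows and 3.32% of those at promoters. GGTCACA, the core of promoter motif 1, was in 4 of the 20 windows below the IDR list (GlnRS, HisRS, LysRS and AsnRS-m). It was in 0 of the 5 with an IDR peak, in 1.63% of all IDR windows and in 2.35% of those at promoters. The E-box CAGCTG was in 3 of the 20, at ArgRS, HisRS and ArgRS-m, and GAGAG in 3, at ArgRS, TrpRS and TrpRS-m. In all IDR windows the E-box had a share of 4.28% and GAGAG 10.98%, and in those at promoters 5.18% and 8.82%. The 20 windows hold weaker summits at start sites, and no share was computed over such summits of all genes. No word contains another, and a match describes letters in a window, not a bound site. Windows of the 5 members with IDR peaks had a median GC content of 29.7%, those of the other 20 members 40.1% and all IDR windows 34.7%. The 5 ranged from 22.8% at SerRS to 46.5% at GluProRS, the member with the highest pooled signal. The other 20 ranged from 12.9% at IleRS-m to 64.4% at CysRS, so the sets overlapped.

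Promoter peaks past the IDR threshold were found at genes without the suffix -m, called cytosolic here, and at no gene with it. The split rests on symbols. ThrRS, which carries such a peak, has no -m partner among the members, so a mitochondrial form of its product is not excluded. Of all 33 members, 5 had an IDR summit in the 500 bp window, or 15.2% (95% Clopper-Pearson interval 5.11% to 31.9%), against 12.0% of all protein-coding genes. The members' share thus lay near that of all genes. These were 5 of 18 cytosolic genes (27.8%, interval 9.69% to 53.5%) and 0 of 15 mitochondrial genes (0%, upper limit 21.8%, or 20% by the limit of 3 counts). Both intervals hold the share of all genes, and the difference between the sets was not tested. Intervals cover counting error only.

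GluProRS, which encodes a fused glutamyl- and prolyl-tRNA synthetase, had the highest signal of the members in the pooled list and in replicate 1, with IleRS above it in replicate 3. Its signal was 110 in replicate 1 (rank 349), 102 in replicate 3 (rank 266) and 214 in the pooled list (rank 283). The pooled summit lay on 3R at 23958626, between protein-coding genes at -235 bp from the start of GluProRS (23952136 to 23958391, minus strand). It was nearer, at -25 bp, to AP-1sigma, a gene of the AP-1 clathrin adaptor on the other strand. The strongest summit of replicate 1 was at the same base, while that of replicate 3, at 23958496, was nearer to GluProRS (-105 bp) than to AP-1sigma (-155 bp).

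IleRS, the isoleucyl-tRNA synthetase gene, followed closely. Signals were 107 in replicate 1 (rank 373), 106 in replicate 3 (rank 243) and 211 in the pooled list (rank 296). This summit was on 3L at 22288506, between genes, at -159 bp from IleRS (22288665 to 22292810, plus strand) and -311 bp from Hem, a gene of the actin-regulating WAVE complex read in the other direction. IleRS was the nearer of the pair.

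SerRS, the seryl-tRNA synthetase gene, came next, with 103 in replicate 1 (rank 414), 90.3 in replicate 3 (rank 371) and 184 in the pooled list (rank 423). Its summit, on 2L at 3037402, was 1 bp inside the transcript from the upstream start of SerRS (3035493 to 3037403, minus strand), in the 5' untranslated region. The overlapping gene CG17260 on the plus strand has a start site from which the summit is at -9 bp. These 3 members stood apart from the others in both replicates, where the next value was 62.9 in replicate 1 (ThrRS) and 52.8 in replicate 3 (AspRS).

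ThrRS, for threonyl-tRNA synthetase, had 62.9 in replicate 1 (rank 1333), 44.0 in replicate 3 (rank 1761) and 99.6 in the pooled list (rank 1653). The summit on 2L at 12103613 lay at -138 bp from ThrRS (12103751 to 12107170, plus strand) and -328 bp from Patsas on the minus strand. In replicate 3 the summit was at 12103509, -242 bp from ThrRS and -224 bp from Patsas. AspRS, for aspartyl-tRNA synthetase, had 48.8 in replicate 1 (rank 2244), 52.8 in replicate 3 (rank 1219) and 91.6 in the pooled list (rank 1953). Its summit on 2R at 12880150 was at -134 bp from an internal start of AspRS (12877004 to 12883168, plus strand), in an AspRS intron and in the 5' untranslated region of Nmda1, 80 bp inside that gene. Both genes ranked in the weaker part of the IDR list, and their order differed between the replicates.

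**Figure D1:**
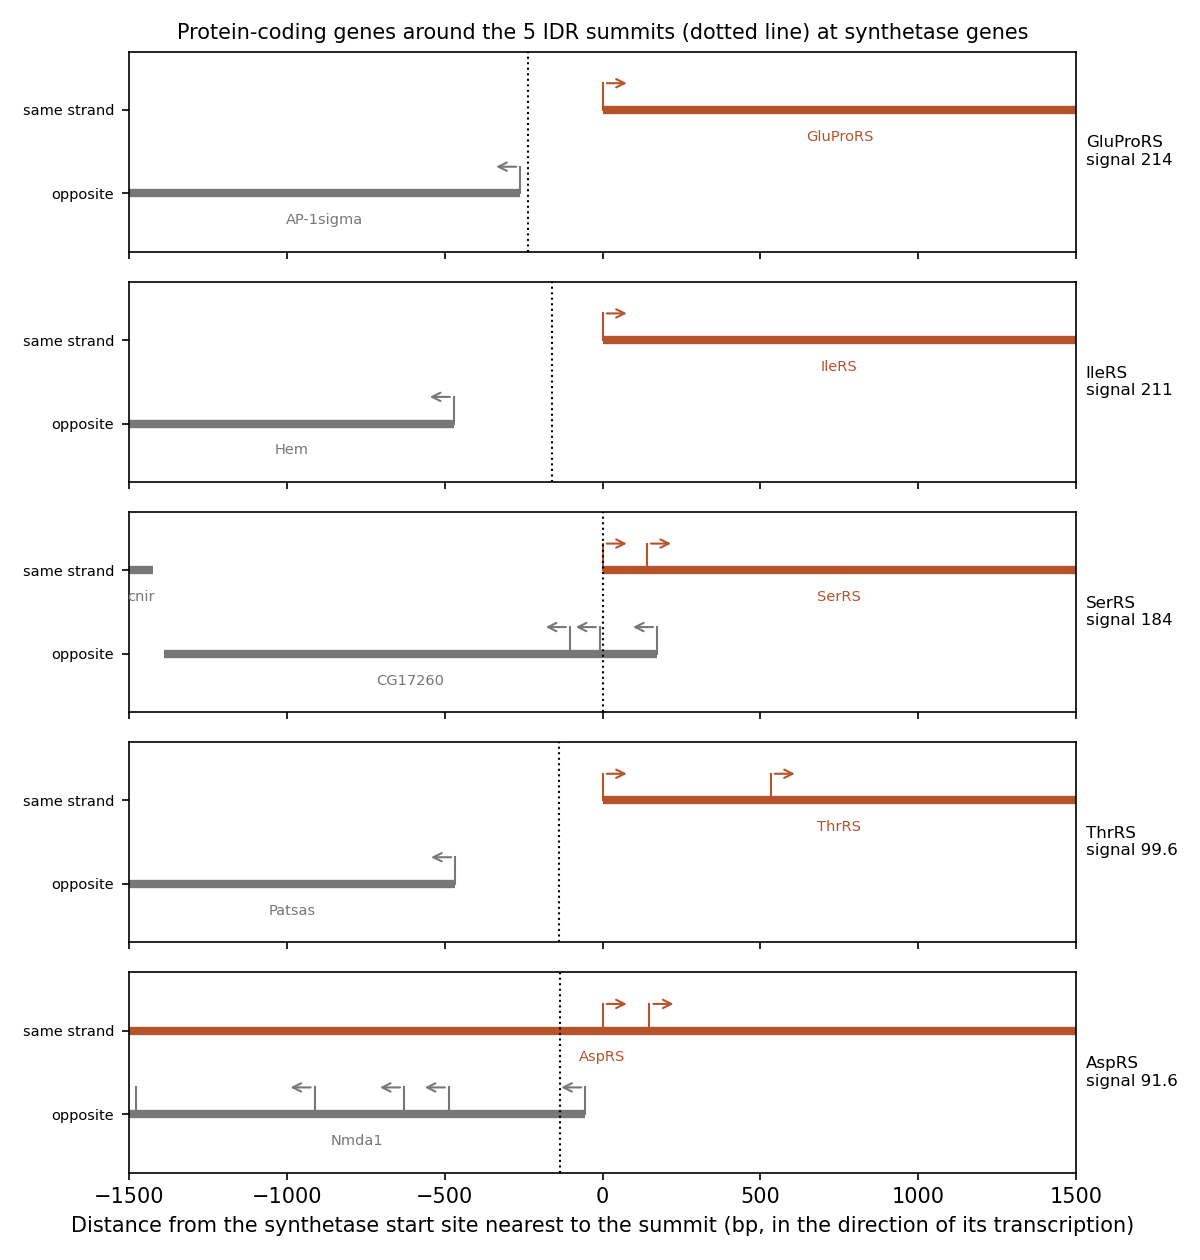
Protein-coding genes around the 5 IDR summits at synthetase genes, drawn over 1500 bp to either side of the synthetase start nearest to the summit (x axis, bp, in the direction of the synthetase). Thick bars are genes on the same or the opposite strand, bent arrows are annotated start sites and the dotted line is the summit. In every panel a gene on the opposite strand starts within 500 bp of the summit.

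All 5 of these summits had the start of another gene within 500 bp, each on the opposite strand. Such neighbours were common at genes with an IDR summit. Of all 1678 such protein-coding genes, 1015 had another gene's start within 500 bp of one of their own. For the pooled summits of GluProRS and AspRS the other gene was the nearer. For the strongest summits of replicate 3 this held for ThrRS and AspRS instead, so the nearer gene of the GluProRS and ThrRS pairs differed between lists. The peak lists do not say to which gene of a pair a summit belongs. Another gene's start site lay within 500 bp of a start of 15 of 18 cytosolic members (83.3%) and 7 of 15 mitochondrial members (46.7%), against 30.9% of all protein-coding genes. Among genes with such a neighbour, 5 of 15 cytosolic and 0 of 7 mitochondrial members carried an IDR summit, against 23.6% of all 4309 such genes. Among genes without one, 0 of 3 cytosolic and 0 of 8 mitochondrial members had it, against 6.88% of all 9636. Members with 2 or more annotated start sites were 7 of 18 cytosolic and 2 of 15 mitochondrial genes, and 4 of those 7 and 0 of those 2 had an IDR summit, against 19.9% of all such genes. The part of these gene arrangements in the counts was not tested.

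Most members had an entry in the pooled relaxed list, the 5 with IDR peaks included. Such a summit was found at 25 of 33 members (75.8%, interval 57.7% to 88.9%), against 49.3% of all protein-coding genes. The count was 16 of 18 for cytosolic members (88.9%, 65.3% to 98.6%) and 9 of 15 for mitochondrial members (60.0%, 32.3% to 83.7%). Among genes with a neighbouring start the pooled share was 13 of 15 for cytosolic and 4 of 7 for mitochondrial members, against 70.8% of all such genes. Among genes without one it was 3 of 3 for cytosolic and 5 of 8 for mitochondrial members, against 39.7% of all such genes. These cytosolic genes include ValRS, whose strongest pooled summit was nearer to the start of Kdm4B (-59 bp) than to its own (-454 bp). With each summit given to its nearest start alone, the pooled count was 17 of 33 members, 11 cytosolic and 6 mitochondrial, against 41.5% of all genes. Over the 25 members with a pooled summit the median signal was 60.8, against 48.5 over the 6876 protein-coding genes with one. It was 68.7 for the cytosolic and 52.0 for the mitochondrial members that had a summit. With members lacking an entry counted as lowest, the medians over all members were 61.4 for cytosolic and 30.7 for mitochondrial genes.

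**Figure D2:**
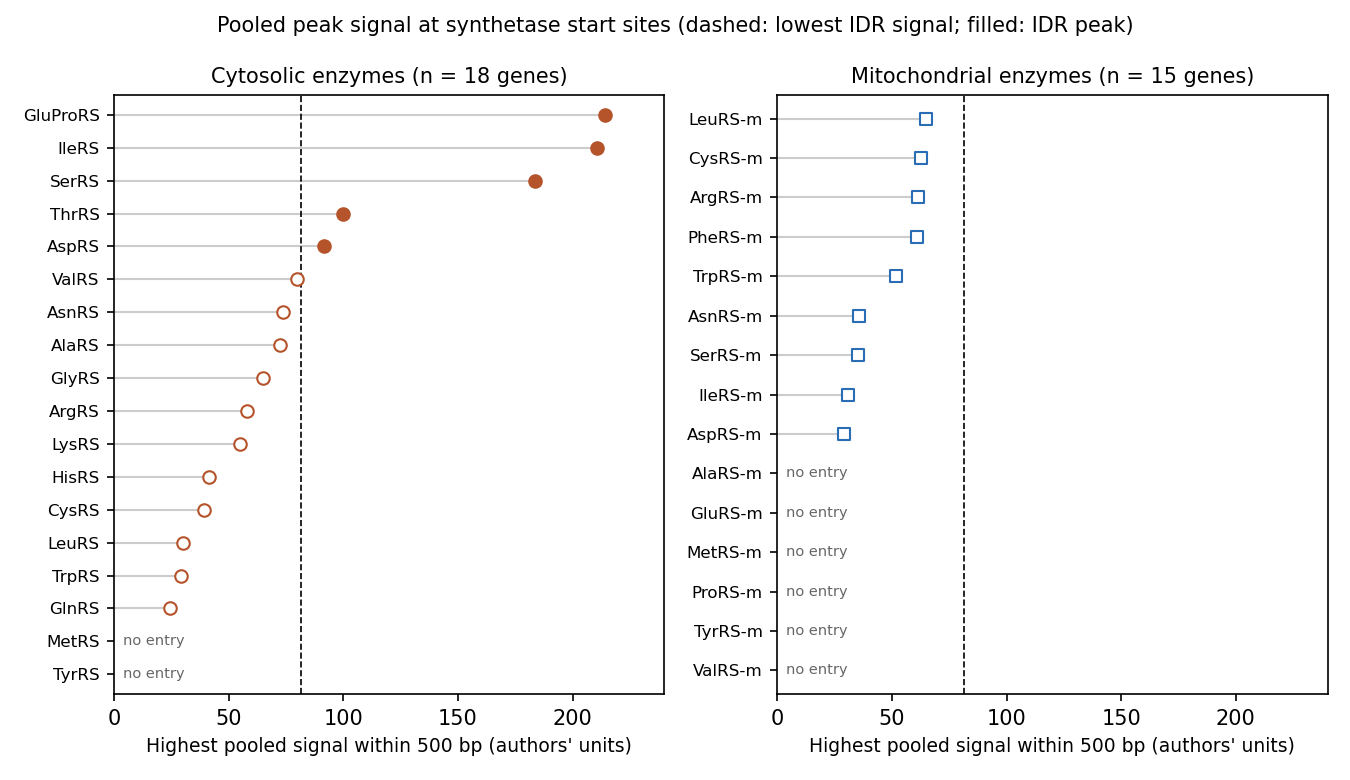
Highest pooled signal within 500 bp of a start site (x axis, authors' units) for each of the 18 cytosolic and 15 mitochondrial synthetase genes. Filled points are IDR peaks, open points are weaker entries, and the dashed line is the lowest signal in the IDR list, 81.3. The cytosolic genes reach 214 and the mitochondrial genes 64.8, and below that value the sets overlap.

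ValRS, the valyl-tRNA synthetase gene, was the strongest member outside the IDR list. It had 45.6 in replicate 1 (rank 2568), 35.1 in replicate 3 (rank 2811) and 79.7 in the pooled list (rank 2541), just below the lowest IDR signal of 81.3. Its summit, on 2R at 13198396, was at -454 bp from ValRS and -59 bp from Kdm4B, a histone demethylase gene on the other strand. AsnRS had 40.0 in replicate 1 (rank 3374), 33.9 in replicate 3 (rank 3011) and 73.5 in the pooled list, with a summit on 2L at 19132000. AlaRS had 43.4 (rank 2872), 24.7 (rank 5978) and 72.4 in the same order of lists, with a summit on 2L at 8381900. The AlaRS summit fell in the 3' untranslated region of its upstream neighbour CG13392, with no other start within 500 bp. The -log10 q values in the pooled list followed this order, with 3.64 at all 5 IDR members, which is the maximum of that list, 3.01 at ValRS, 2.66 at AsnRS and 2.61 at AlaRS.

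GlyRS, for glycyl-tRNA synthetase, had 38.2 in replicate 1 (rank 3702), 25.9 in replicate 3 (rank 5358) and 65.0 in the pooled list, with its summit on 3L at 15094912. ArgRS had 36.5 (rank 4043), 19.6 (rank 10793) and 57.9 in the same lists, on X at 15844410. Both summits lay between genes and nearer to a neighbour on the other strand, Plp at -188 bp and CG8578 at -66 bp. LysRS had 21.6 in replicate 1 (rank 10426), no entry in replicate 3 and 54.7 in the pooled list, on X at 9608942. It thus had the highest pooled signal of the members that lacked an entry in a replicate.

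The remaining cytosolic entries were weak. HisRS had 22.0 in replicate 1 (rank 10089), 17.8 in replicate 3 (rank 14107) and 41.4 in the pooled list, on X at 18515440. HisRS and the LIM-only gene Bx share an annotated start on the plus strand, so this summit, 12 bp inside both, cannot be assigned. CysRS had 17.7 (rank 14860), 22.6 (rank 7464) and 39.1 in the same lists, with its pooled summit on 2R at 16143300 in its own coding exon. Its replicate 1 summit, at 16143122, lay upstream of the gene. LeuRS (30.2, on 2L at 3514679) had an entry in neither replicate. TrpRS had 17.5 in replicate 3 (rank 14735), none in replicate 1 and 29.4 in the pooled list, on 3R at 9266891. GlnRS, which charges glutamine tRNA, had 19.2 in replicate 1 (rank 12800), none in replicate 3 and 24.5 in the pooled list, on 3R at 25265759, with a -log10 q of 0.0751. MetRS and TyrRS had no pooled entry.

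LeuRS-m, for mitochondrial leucyl-tRNA synthetase, was the highest mitochondrial member of the pooled list and number 10 of all 33 there, with 38.9 in replicate 1 (rank 3555), 28.4 in replicate 3 (rank 4363) and 64.8 in the pooled list (rank 3754). In replicate 3 ArgRS-m was higher. The LeuRS-m summit, on 3L at 4825699, was at -154 bp from LeuRS-m and -12 bp from Dhc64C, the dynein heavy chain gene on the other strand. An IDR peak with a signal of 216 lay 834 bp from the start of LeuRS-m, in an intron of Dhc64C and 668 bp inside that gene, beyond the window used here. CysRS-m had 30.8 in replicate 1 (rank 5479), 27.7 in replicate 3 (rank 4608) and 62.9 in the pooled list, on 2R at 14161396, at -34 bp from O-fut1, an O-fucosyltransferase gene. PheRS-m had 32.8 (rank 4890), 24.7 (rank 6002) and 60.8 in the same lists, on 2R at 13968202. TrpRS-m had 33.5 (rank 4689), 24.3 (rank 6228) and 52.0, on 3L at 17849638. Neither PheRS-m nor TrpRS-m had another gene's start in the window. In replicate 3 the strongest PheRS-m summit lay apart from the pooled one, at 13967984 (-324 bp). The replicate 3 entry near the pooled summit, at 13968188, had 22.8 (rank 7293).

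ArgRS-m, for mitochondrial arginyl-tRNA synthetase, ranked far higher in replicate 3 than in replicate 1. It had 24.5 in replicate 1 (rank 8332), 40.3 in replicate 3 (rank 2141) and 61.4 in the pooled list (rank 4121), on 3R at 7887021, so it lay within the 2451 strongest entries of replicate 3 and far outside those of replicate 1. Its nearest IDR summit was 76736 bp away, the greatest distance of any member. The other 4 mitochondrial entries were weak. AsnRS-m had 20.9 in replicate 3 (rank 9113), none in replicate 1 and 35.4 in the pooled list, on 2R at 17001943. SerRS-m had 13.7 in replicate 1 (rank 22957), 19.6 in replicate 3 (rank 10798) and 35.1 in the pooled list, on 3R at 15340199 in an intron of Nagk. IleRS-m had 22.3 (rank 9829), 14.2 (rank 24377) and 30.7 in the same lists, with its pooled summit on 3L at 16100097. The strongest replicate summits lay apart from it, at 16099989 in replicate 1 and 16100408 in replicate 3. Replicate 3 held the higher rank at SerRS-m and replicate 1 at IleRS-m. AspRS-m, with 22.6 (rank 9627), 15.2 (rank 20852) and 29.3, had its summit on 2L at 16827233 in its 5' untranslated region. No pooled entry was listed at AlaRS-m, GluRS-m, MetRS-m, ProRS-m, TyrRS-m or ValRS-m. A missing entry says that no peak reached the list at this unknown depth.

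**Figure D3:**
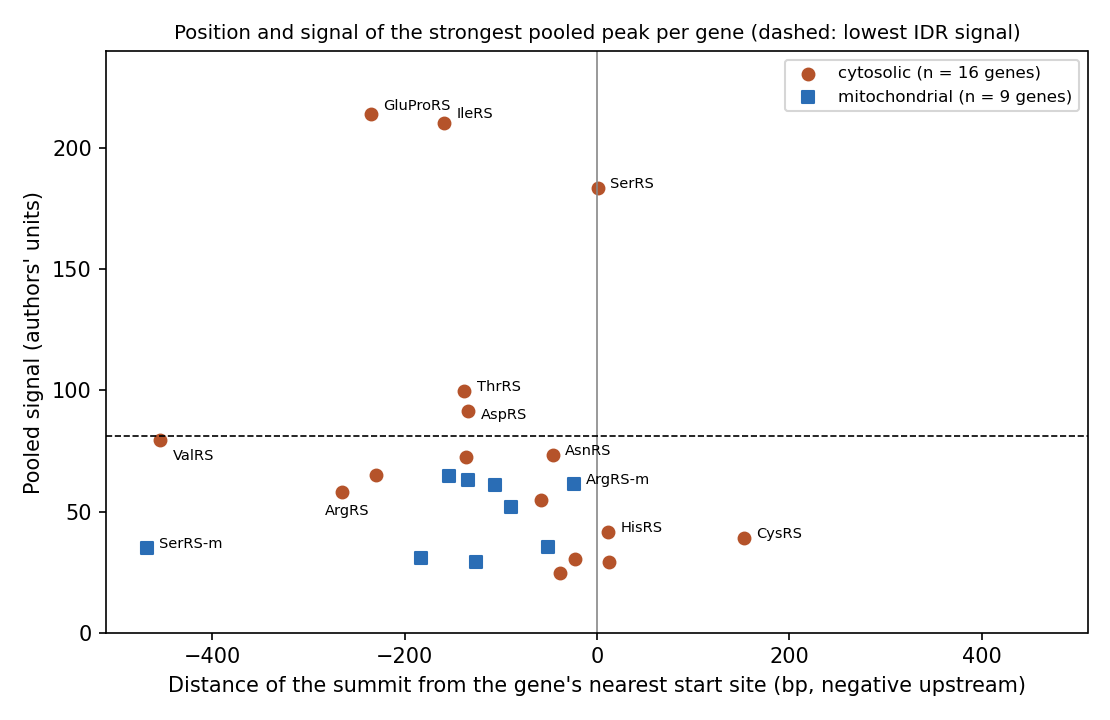
Distance of each member's strongest pooled summit from its nearest start site (x axis, bp, negative upstream) and its pooled signal (y axis, authors' units), with the lowest IDR signal as a dashed line. Of 25 summits, 21 lie upstream of that nearest start, among them all 9 of mitochondrial genes. For AspRS and AspRS-m that start is internal, and the summit lies inside the gene.

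Most summits lay upstream of the member's nearest start site, as they did over all genes. At AspRS and AspRS-m that start is internal, so the summit counts as upstream though it lies inside the gene. The median position was -96 bp for the 16 cytosolic members and -126 bp for the 9 mitochondrial members, with a range over all 25 of -468 to 153 bp. It was -126 bp over all 25 members and -102 bp over the 6876 protein-coding genes with a pooled summit. Upstream summits made up 84% for members and 75.9% for all genes, and 22 of 25 members (88%) were within 250 bp, against 71.6% of all genes. By location, 17 of 25 lay between protein-coding genes, 10 of them at cytosolic and 7 at mitochondrial members. In 18 of the 25 cases another gene's start was also within 500 bp, and in 15 of 25 the member's own start was the nearest, 9 cytosolic and 6 mitochondrial, with the tie at HisRS not counted. For these counts by location and by summit, no share over all genes was computed. Counted from start sites instead, 3052 of the 6876 protein-coding genes with a pooled summit had another gene's start within 500 bp.

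The replicates gave similar orders of the members. A relaxed summit was present in both replicates at 20 of 33 members (60.6%, interval 42.1% to 77.1%), against 34.2% of all protein-coding genes. They were 12 of 18 cytosolic and 8 of 15 mitochondrial members. A summit of each replicate within 200 bp of a pooled summit was found at 19 members. In the list of replicate 1 the count was 23 of 33, against 52.0% of all genes, and in that of replicate 3 it was also 23 of 33, against 41.1%. Across the 20 members with a summit in both, Spearman's rho of the highest signals was 0.850, and across all 4768 protein-coding genes with both it was 0.725. Genes are not independent samples, and a summit shared by neighbours enters more than once in the count over all genes.

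**Figure D4:**
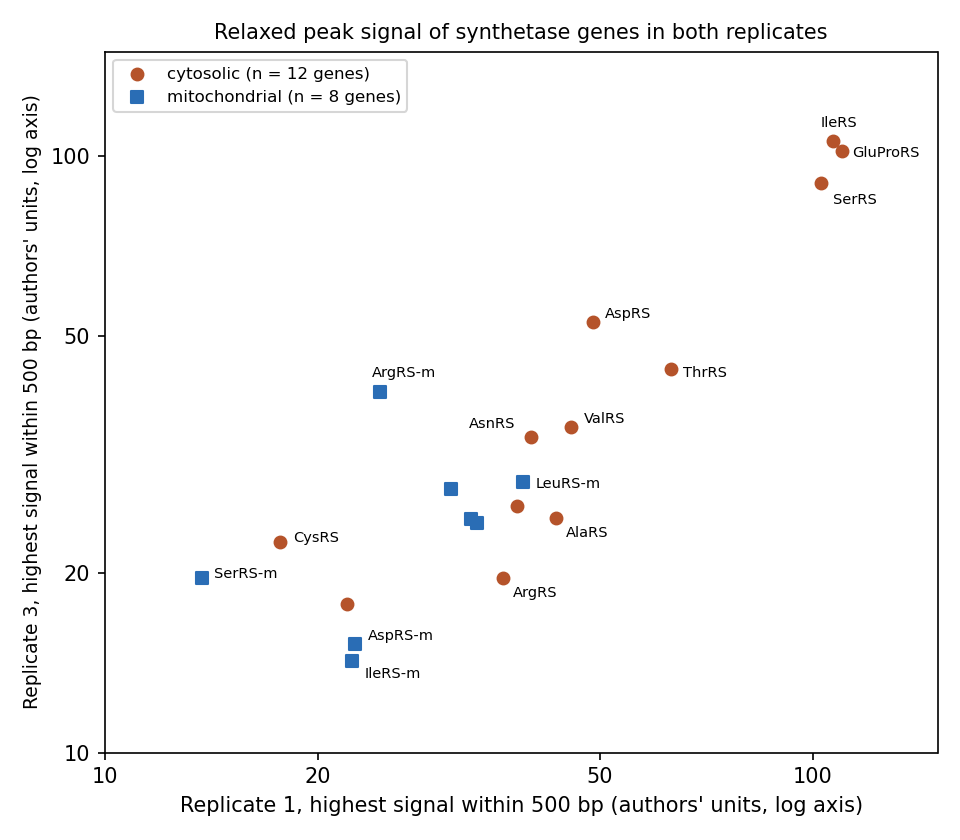
Highest relaxed signal within 500 bp of a start site in replicate 1 (x axis) and replicate 3 (y axis), both in authors' units on log axes, for the 20 members with an entry in both. IleRS, GluProRS and SerRS lie apart from the rest at 90.3 or more in both lists, and ArgRS-m lies above the other mitochondrial genes of like replicate 1 signal.

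Over a wider reach, 16 of 33 members had an IDR summit in the gene or within 5 kb of it (48.5%), against 33.2% of all protein-coding genes. These were 11 of 18 cytosolic genes and 5 of 15 mitochondrial genes. The span searched grows with gene length, and the median length was 2760 bp for members and 2166 bp for all protein-coding genes. The part of gene length and of neighbouring starts in this count was not tested. The median distance from a start site to the nearest IDR summit was 6052 bp for cytosolic and 10642 bp for mitochondrial members, and 14133 bp over all protein-coding genes. The summit nearest to AlaRS-m, 6602 bp away, had a signal of 578 and lay at -101 bp from Tcs5. On the X chromosome all 3 members, ArgRS, HisRS and LysRS, were without an IDR summit at the start, against 9.15% of all genes of X that had one. On 2L it was 2 of 6 members against 12.3% of genes, and on 2R 1 of 8 against 10.97%. On 3L it was 1 of 10 against 12.9%, and on 3R 1 of 6 against 13.97%. Differences between arms were not tested.

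Among 15 other genes of tRNA charging and its readout, 3 had an IDR summit in the window (20%, interval 4.33% to 48.1%), again beside 12.0% of all genes. Phenylalanyl-tRNA synthetase is built of subunits whose genes carry a prefix and so fall outside the naming rule. beta-PheRS had a peak with 61.2 in replicate 1, 34.0 in replicate 3 and 99.5 in the pooled list, at -80 bp from its start and with no other start near, while alpha-PheRS had no entry in any list. GatA, a subunit of the amidotransferase that forms glutaminyl-tRNA in mitochondria of yeast and humans, had 63.3, 43.0 and 100 in the same order of lists, at -64 bp from its start and -10 bp from P5cr. GatC had a pooled signal of 44.4 and GatB no entry. eEF1alpha1, whose product brings charged tRNAs to the ribosome, had 77.4 in replicate 1, 123 in replicate 3 and 206 in the pooled list, in an intron of the gene. A second IDR summit in its window, with 113 in the pooled list, lay in a coding exon of ERp60, 273 bp inside that gene. Pooled entries below the IDR list were also found at eEF1alpha2 (44.7), its mitochondrial counterparts mEFTu1 (67.0) and mEFTu2 (45.1), and crc (29.3), which encodes the fly ATF4. In all, 8 of the 15 genes had a pooled summit in the window (53.3%, interval 26.6% to 78.7%). This share lay near the 49.3% of all protein-coding genes. AIMP1, AIMP2 and AIMP3, the scaffold proteins of the multisynthetase complex in animals, had none in the pooled list. Gcn2, the kinase that senses uncharged tRNA, and Slimp, a paralog of seryl-tRNA synthetase, had none.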

How the data were processed

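The deposited files are narrowPeak lists in dm6 and dm3, made per replicate, from pooled reads and as IDR-thresholded peaks, per the file records. The signal per peak and the -log10 q value are the authors' values as deposited. No source used here states the aligner, the peak caller, a version or the IDR cutoff. The dm3 lists and control libraries were not used. With no read counts, depth and the precision it gives are unknown. Summits were placed against Ensembl release 115 (BDGP6 version 54). All 33 members had the same start and end in RefSeq, and 0 peaks ended past their chromosome in Release 6. Coordinates are 1-based. Genes on Y and on unplaced sequences were left out, and 0 dm6 peaks are listed there. Symbols alone chose the members. Members, lists and words were chosen with earlier results of these data known, so they are described by counts beside those over all genes and no test was run. Every member with a pooled summit is given, and neighbours within 500 bp of their IDR summits are named. Neighbours of other summits, genes at wider IDR summits and the 7 sequences were picked with their values known. Alternatives changed the window, start sites, assignment, threshold, members and replicate. The counting was tested on simulated data. Python 3.11.15, scipy 1.17.1 and matplotlib 3.10.9 were used.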

Additional observations from a re-analysis of the deposited data

How the results depend on the processing

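Of 60 recomputed values under other settings, 50 stayed within 1.5 times the reported count or kept the reported median, and 10 moved. Giving a summit to the nearest start alone left 3 members with an IDR summit, all 3 cytosolic (IleRS, SerRS and ThrRS), against 8.66% of all genes. It left 17 of 33 members with a pooled summit, against 41.5% of all genes, and gave a median pooled signal of 52.0. In the stronger part of the IDR list 3 members were left, all 3 cytosolic (GluProRS, IleRS and SerRS), against 6.83% of all genes. The mitochondrial count of IDR summits was 1 with a window of 1000 bp, through LeuRS-m, against 14.1% of all genes, and 0 to 1 when either replicate was left out, where the 1 was ArgRS-m in the strongest entries of replicate 3, without replicate 1, against 11.8% of all genes. With the annotated 5' end of the gene as the only start the median was 59.4. In that setting 4 members had an IDR summit, all cytosolic and without AspRS, against 10.6% of all genes. In the lists of single replicates, on their own scales, the medians were 24.7 without replicate 1 and 33.5 without replicate 3. The cytosolic count of 5 IDR summits was the same 5 genes in the strongest entries of either replicate and with windows of 250 and 1000 bp. With the phenylalanyl subunits added to the members, the cytosolic count was 6. Limits are the unknown depth, control libraries that were not analysed here, summits that cannot be assigned within gene pairs, and sets of 18 and 15 genes, in which a share of 0 still allows 21.8%.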

Other observations

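Relaxed entries in a single replicate were listed at 6 of the 33 members (18.2%), against 24.7% of all protein-coding genes. Of members 9.09% had an entry in replicate 1 only and 9.09% in replicate 3 only, against 17.8% and 6.96% of all genes in the same order. GlnRS, LysRS and TyrRS had one in replicate 1 and not in replicate 3, while TrpRS, AsnRS-m and GluRS-m had one in replicate 3 and not in replicate 1. Their signals were low, from 12.0 at TyrRS to 21.6 at LysRS in replicate 1, and from 13.9 at GluRS-m to 20.9 at AsnRS-m in replicate 3. LeuRS had a pooled entry (30.2) with none in either replicate. Among the genes of the multisynthetase complex scaffold, AIMP1 (37.1), AIMP2 (22.0) and AIMP3 (18.6) all had an entry in replicate 1 and none in replicate 3 or in the pooled list. These values were noticed after the lists were examined and carry no test.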
